A study of Mus musculus with 6 samples.

Results

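The 9 genes described here encode the transcription factors GATA1, GATA2 and GATA3, their cofactor FOG1 (Zfpm1), the repressors GFI1 and GFI1B, the related basic helix-loop-helix factors MITF and TFEC, and the E-box-binding repressor ZEB2. Their regions were taken from the deposited list of ATAC-seq regions that differed between WT and dKO cells. A region was counted for a gene when it overlapped the gene body in the GENCODE M21 annotation (mm10) or the 100 kb on either side. By this rule 29 of the 10016 listed regions belonged to the 9 genes, and 8 of the 9 genes had at least 1. ATAC-seq measures how accessible DNA is by the number of adapters that the Tn5 transposase inserts into it.

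All groups were fetal liver cells of the mouse, immortalised with the oncogenic fusion MLL-ENL and grown in interleukin 3 at 10 ng/ml. WT cells had a wild-type genotype in the labels, and in the study's design they carried floxed but intact Cebpa and Cebpb, which encode C/EBPα and C/EBPβ. Cells named dKO were Cebpa KO and Cebpb KO and expressed GFP, whereas the WT labels name no exogenous gene. The remaining group, knocked out in the same way and expressing GFP with the rat LAP* isoform of C/EBPβ, was not analysed here. Each group had 2 libraries made from 50000 sorted cells, so the comparison rests on 4 libraries, and the labels do not say whether the libraries of a group came from separate cultures or clones. The dKO lines were rare surviving clones, the clone behind each library was not given in the sources used here, and differences between clones or in the vector cannot be told apart from the effect of the deletion. The list holds regions that passed the authors' corrected P-value of 0.05 and gives 1 mean per group, so no value has a replicate error and the comparison here has no test of its own. Defining markers of the labelled cell type could not be checked, because regions with like accessibility in both groups are not in the list.

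These factors hold blood progenitors at branch points between lineages. GATA2 maintains stem and progenitor cells and drives mast cell and basophil development, GATA1 takes its place in red cells and megakaryocytes with FOG1 as partner, and GATA3 directs T cells and innate lymphoid cells. GFI1 and its relative GFI1B recruit histone demethylase and deacetylase complexes, the former in neutrophil precursors and stem cells and the latter in red cells and platelets. MITF is required in mast cells and pigment cells, TFEC is a macrophage member of the same family, and ZEB2 acts in stem cells, monocytes and dendritic cells. In granulocyte-monocyte progenitors C/EBPα is known to act against several of these programs.

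Sequences are shown for elements with large differences, for 2 with a match of interest and for 3 promoters that a listed region covers, so that they can be read beside the values. Coordinates are those of mm10, and the bases were read from the RefSeq GRCm38.p6 assembly. Capitals mark matches, on either strand, to strings for C/EBP (TTGCNNAA or TTACNNAA), RUNX (AACCACA), PU.1 (GAGGAAGT) and GFI1 (AAATCAC). The GATA strings were AGATAA and also TGATAA, those for AP-1 were TGACTCA and also TGAGTCA, the MITF E-box was CACGTG and also CATGTG, and the ZEB2 E-box was CAGGTG. Positions are those of region centres relative to the annotated start of the gene, with negative values upstream. The first set holds the central 200 bp of the regions that were most strongly higher in dKO, on the plus strand, from chr6:88176356-88176555, chr5:107759216-107759415 and chr2:28591559-28591758.
Gata2 element at -17.4 kb: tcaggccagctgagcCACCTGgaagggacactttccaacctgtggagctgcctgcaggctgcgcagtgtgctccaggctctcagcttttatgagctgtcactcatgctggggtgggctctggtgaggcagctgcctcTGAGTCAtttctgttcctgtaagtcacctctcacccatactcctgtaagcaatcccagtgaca
Gfi1 element at -33.3 kb: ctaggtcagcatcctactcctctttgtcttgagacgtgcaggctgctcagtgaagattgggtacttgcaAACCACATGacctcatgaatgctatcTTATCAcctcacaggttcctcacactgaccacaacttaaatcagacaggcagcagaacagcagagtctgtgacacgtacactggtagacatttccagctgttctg
Gfi1b element at +30.3 kb: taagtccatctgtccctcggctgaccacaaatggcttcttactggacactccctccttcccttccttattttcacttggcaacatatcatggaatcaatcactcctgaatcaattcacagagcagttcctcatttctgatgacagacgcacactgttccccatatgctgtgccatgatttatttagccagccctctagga
The first of these carries a ZEB2 E-box and an AP-1 string, the second a RUNX string that overlaps an MITF E-box and a GATA string, and the third none of the strings.

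The second set holds the central 200 bp of 3 further elements, shown for the largest negative difference, for a GATA match in a gene of a GATA cofactor and for a C/EBP match in Mitf. They lie at chr8:122210243-122210442, chr8:122294294-122294493 and chr6:97995822-97996021, again on the plus strand.
Zfpm1 element at -71.8 kb: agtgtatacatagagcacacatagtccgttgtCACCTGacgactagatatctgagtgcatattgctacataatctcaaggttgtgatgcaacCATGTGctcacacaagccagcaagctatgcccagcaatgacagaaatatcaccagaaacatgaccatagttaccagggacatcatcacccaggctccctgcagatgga
Zfpm1 element at +12.3 kb: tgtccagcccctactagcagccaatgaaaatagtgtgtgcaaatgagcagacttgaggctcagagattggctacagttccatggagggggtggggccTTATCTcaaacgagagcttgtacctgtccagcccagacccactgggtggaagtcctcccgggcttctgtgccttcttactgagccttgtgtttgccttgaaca
Mitf element at +188.9 kb: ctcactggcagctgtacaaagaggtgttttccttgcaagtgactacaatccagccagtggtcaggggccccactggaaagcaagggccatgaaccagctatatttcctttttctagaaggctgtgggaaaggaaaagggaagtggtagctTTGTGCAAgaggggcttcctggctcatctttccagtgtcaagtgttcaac
Their capitals are a ZEB2 and an MITF E-box in the first, a GATA string in the second and a C/EBP string in the third.

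The third set holds the 250 bases before the RefSeq start site of Gata2, Zeb2 and Tfec, written along each gene, at chr6:88193641-88193890 (plus strand), chr2:45117443-45117692 (minus strand) and chr6:16898442-16898691 (minus strand). All 9 genes had RefSeq promoters, 16 in all, and a listed region covered part of 5 of them.
Gata2 promoter: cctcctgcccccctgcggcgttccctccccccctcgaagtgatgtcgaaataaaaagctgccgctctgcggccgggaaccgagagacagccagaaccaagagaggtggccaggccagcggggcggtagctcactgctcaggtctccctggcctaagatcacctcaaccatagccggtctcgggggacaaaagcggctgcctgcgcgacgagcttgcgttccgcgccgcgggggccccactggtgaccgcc
Zeb2 promoter: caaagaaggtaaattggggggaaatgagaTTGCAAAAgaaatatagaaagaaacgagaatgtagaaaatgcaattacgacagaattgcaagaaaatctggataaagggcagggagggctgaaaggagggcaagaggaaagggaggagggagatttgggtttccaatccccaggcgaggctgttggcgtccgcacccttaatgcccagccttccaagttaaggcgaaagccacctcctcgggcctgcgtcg
Tfec promoter: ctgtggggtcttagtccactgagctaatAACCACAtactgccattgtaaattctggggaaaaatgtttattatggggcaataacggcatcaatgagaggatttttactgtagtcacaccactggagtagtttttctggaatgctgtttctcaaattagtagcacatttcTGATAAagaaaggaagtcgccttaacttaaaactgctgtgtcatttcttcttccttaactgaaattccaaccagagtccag
The Gata2 promoter shown held none of the strings, the first Zeb2 promoter held a C/EBP string and the Tfec promoter a RUNX and a GATA string. The C/EBP string of Zeb2 lay in the part of the promoter that the listed region does not cover. The other covered promoters, which are not shown, were the internal one of Gata2 (chr6:88198414-88198663), with none of the strings, and one of Zeb2 (chr2:45110278-45110527), with AP-1 strings and no C/EBP string. Among the 32851 RefSeq promoters, the same 250 bases held the C/EBP strings in 16.5%, the GATA strings in 16.6% and the RUNX string in 4.40%.

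A listed region was found at 8 of the 9 genes, against 63.0% of all 21938 protein-coding genes. Accessibility was higher in dKO at 20 of the 29 regions, against 60.3% of all listed regions, and lower at 9, against 39.7%. The regions of any 1 gene all went the same way. Regions were higher at Gata2 (9), Zeb2 (4), Gfi1b (3), Gfi1 (2), Gata3 (1) and Mitf (1), and lower at Zfpm1 (5) and Tfec (4). Of the 13817 protein-coding genes with a listed region by the same rule, 43.8% had higher regions only, 28.9% lower regions only and 27.3% both. These shares include genes with a single region, like Gata3 and Mitf, which cannot go both ways. Shares for genes with as many regions as each member were not calculated. Without the Gata2 regions, an alternative chosen after seeing the data, 11 of 20 regions (55.0%) were higher. Regions of the same gene share a locus and are not independent of each other.

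Values are log2 means of normalised reads over the 2 libraries of a group, as the authors calculated them, and a difference is the dKO mean minus the WT mean on that scale. The median difference of the 29 regions was 1.17, against 0.98 over all listed regions. It was 1.55 for the 20 higher regions and -1.60 for the 9 lower ones, against 1.58 and -1.85 for all higher and lower listed regions. Of the 20 higher regions, 18 were at least 2-fold higher, against 4971 of the 6035 higher listed regions. Of the 9 lower regions, 7 were at least 2-fold lower, against 3596 of the 3981 lower listed regions. As shares of all listed regions in both directions, 49.6% were at least 2-fold higher and 35.9% at least 2-fold lower. The lowest log2 mean in the list, -0.15 in both groups, is the step of 1 read in each library, and 3 reads per library correspond to 1.43. The lower group lay at or under that floor in 4 of the 29 regions, against 4.36% of all listed regions. Bulk cells were measured, so a region that opens in more cells and one that opens further in each cell cannot be told apart.

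**Figure D1:**
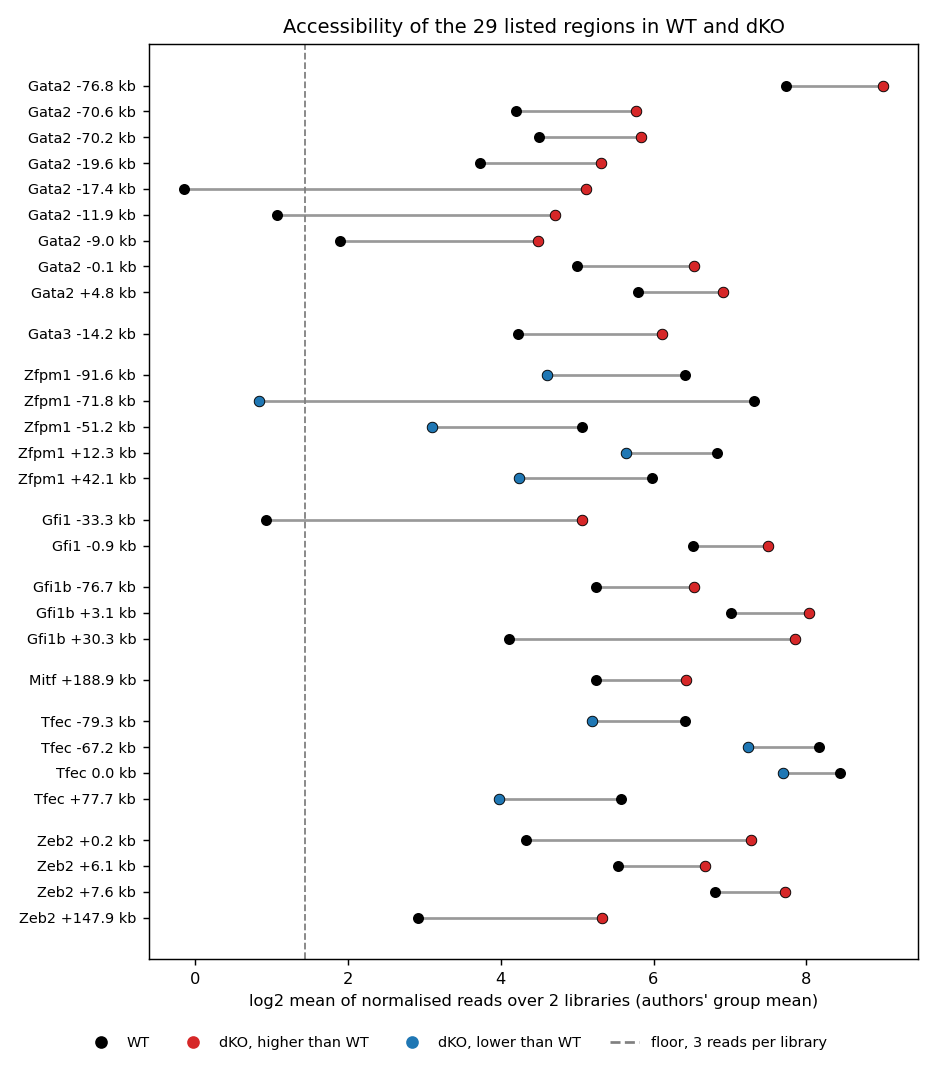
Accessibility of each of the 29 regions in WT (black) and dKO (red where higher, blue where lower), as the authors' log2 group mean of normalised reads over 2 libraries, without error bars since no value of a single library is given. Rows name the gene and the distance of the region centre from the gene start. All points of Gata2, Gata3, Gfi1, Gfi1b, Mitf and Zeb2 are red, and all those of Zfpm1 and Tfec are blue. The dashed line marks 3 reads per library (1.43).

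Signal at the targeted genes was lower in dKO. A region over Cebpa went from a WT mean of 9.99 to the lowest level of -0.15 in dKO, and 2 regions at Cebpb went from 8.60 to 3.37 and from 7.38 to -0.15. The first Cebpb region thus kept reads above the floor in dKO. Deleted sequence gives no reads, so at these loci a loss of sequence and a loss of accessibility cannot be told apart.

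Gata2, which encodes the GATA factor of stem cells, progenitors and mast cells, had 9 higher regions and no lower one (chromosome 6, 88193891 to 88207032, plus strand). As many listed regions or more were found at 0.52% of the 21938 protein-coding genes, and as many higher regions with no lower one at 0.205%. The differences ran from 1.11 to 5.27 with a median of 1.57. The regions fell into a distal group near 70 to 77 kb upstream, a group between 9.0 and 19.6 kb upstream, and the gene itself.

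The strongest region of the locus was the most distal one. It spans chr6:88116547-88117578, 76.8 kb upstream of the gene start, where a distal Gata2 enhancer of myeloid progenitors is known to lie. The WT mean was 7.73 and the dKO mean 9.01, a difference of 1.28 or 2.43-fold. These levels correspond to about 471 and 1144 reads over both libraries of each group, and the 95% exact binomial interval of the difference, which covers counting error only, was 1.12 to 1.44. The region was thus open in both genotypes, at the highest level of all 29 regions in dKO. Its central 200 bp held none of the strings. A GATA string, next to a ZEB2 E-box, began at position -108 bp from its centre, in chr6:88116942-88116971, shown with the GATA match in capitals.
Gata2 distal element, GATA match: gtcaggtggcgcTTATCAgggccctgctcc
An adjacent pair of weaker regions followed at 70.6 and 70.2 kb upstream (chr6:88123164-88123519 and chr6:88123544-88123834). WT and dKO means were 4.20 and 5.77 at the first and 4.50 and 5.83 at the second, so that both differed by similar amounts (1.57 and 1.33). By distance to a coding start site these 3 regions are nearer to Rpn1 than to Gata2.

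Between the distal group and the promoter, 4 intergenic regions had low WT means and higher dKO means. At -17.4 kb (chr6:88176294-88176618, sequence above) the WT mean was -0.15, the lowest level that occurs, and the dKO mean was 5.12. Against a floor of 3 reads per library the dKO mean was 12.9-fold higher, a value that leaves out counting error in dKO. The difference of 5.27 between the deposited means is not a measured ratio, and its counting interval was 3.36 to 8.34. At -11.9 kb (chr6:88181833-88182091) the means were 1.07, again under the floor, and 4.71. The difference of 3.64 rests on about 5 WT reads and has a counting interval of 2.23 to 5.21. At -9.0 kb (chr6:88184756-88184990) they were 1.89 and 4.49, a difference of 2.60 (counting interval 1.56 to 3.93). At -19.6 kb (chr6:88174176-88174502) WT cells already had a mean of 3.73, which was 5.31 in dKO. In WT, 3 of these 4 regions were thus near or under the floor, whereas in dKO all 4 lay between 4.49 and 5.31.

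The promoter region of Gata2 (chr6:88193459-88194053), which covers the first exon and the sequence before it, had means of 5.00 in WT and 6.53 in dKO. The difference was 1.53, or 2.89-fold, with a counting interval of 1.13 to 1.94. A second region 4.8 kb into the gene (chr6:88198423-88198952) overlaps an exon and the internal promoter, and its centre lay 353 bp downstream of the start of a shorter Gata2 transcript. Its means were 5.80 and 6.91, a difference of 1.11. The differences at both promoters were smaller than those at the 3 nearest upstream elements. Further inside the Gata2 body no region was listed.

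Gata3, the GATA factor of T cells (chr2:9857078-9890034, minus strand), had a single listed region, 14.2 kb upstream (chr2:9903905-9904528, intergenic). The WT mean was 4.23 and the dKO mean 6.11, a difference of 1.88 (3.68-fold, counting interval 1.36 to 2.39). The nearest start site of any kind was that of the antisense transcript Gm13262. No region was listed in the Gata3 body. Gata1, the erythroid and megakaryocytic factor on chromosome X, had no listed region within 100 kb, which leaves its accessibility undescribed, since unlisted regions were either not peaks or not past the authors' cutoff.

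Zfpm1 encodes FOG1, the zinc finger cofactor that binds the GATA factors and is kept off in mast cells (chr8:122282141-122337251, plus strand). Accessibility was lower in dKO at all 5 listed regions, between -1.19 and -6.48 with a median of -1.80. Inside the gene the intronic region at +12.3 kb (chr8:122294174-122294614, sequence above) went from 6.83 in WT to 5.64 in dKO, a difference of -1.19 with a counting interval of -1.52 to -0.86. The intronic region at +42.1 kb (chr8:122324024-122324440) went from 5.98 to 4.24, a difference of -1.74. Both regions stayed detectable in dKO.

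The other 3 Zfpm1 regions lay upstream, in introns of the very long gene model Gm20388 that also spans Zfpm1. The one at -71.8 kb (chr8:122209908-122210778) went from a WT mean of 7.32, about 355 reads, to 0.84 in dKO, about 4 reads. The difference was -6.48, but the dKO mean lies under the floor, and the counting interval of -8.36 to -5.10 overlaps in size with that of the Gata2 region at -17.4 kb (3.36 to 8.34). Its neighbours at -91.6 kb (chr8:122190314-122190670) and -51.2 kb (chr8:122230767-122231150) went from 6.41 to 4.61 and from 5.06 to 3.10. The middle region thus had almost no reads in dKO while those on either side kept part of their signal. Whether sequence was lost at the middle region in the dKO cells was not tested. All 3 lie closer to the start of Zfp469, a long noncoding RNA gene in this annotation, than to that of Zfpm1.

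**Figure D2:**
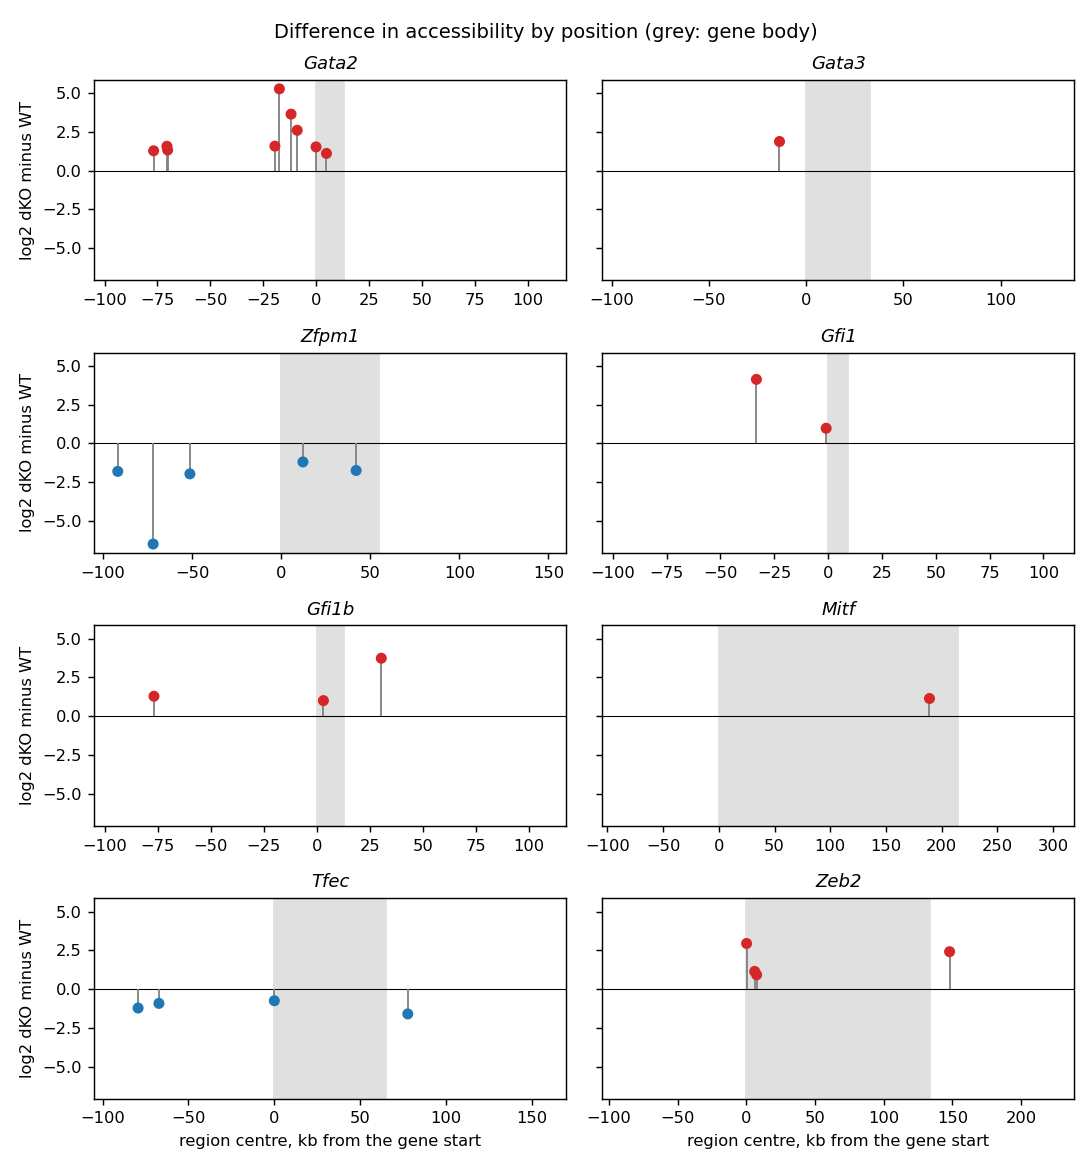
Difference in accessibility (log2 dKO minus WT, vertical axis) of each region against the distance of its centre from the gene start in kb, for the 8 genes with a listed region. Grey bands are gene bodies, and each gene is drawn in its own reading direction. Red points are higher and blue points lower in dKO, and no panel holds both colours. The deepest blue point is the Zfpm1 region at -71.8 kb and the highest red point the Gata2 region at -17.4 kb.

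Gfi1 encodes a repressor needed for neutrophil development (chr5:107716657-107726036, minus strand), and both of its listed regions were higher in dKO. The first lies 0.9 kb upstream (chr5:107726706-107727172) over an exon of the noncoding transcript A430072P03Rik, which runs in the opposite direction. It had means of 6.52 and 7.50, a difference of 0.98 with a counting interval of 0.73 to 1.23. The second lies 33.3 kb upstream in an intron of Evi5 (chr5:107759159-107759473, sequence above) and went from 0.93 in WT, about 4 reads, to 5.06 in dKO. The WT mean lies under the floor, so that the difference of 4.13 is not a measured ratio, and its counting interval was 2.79 to 6.12. Centring on the median of all listed regions takes the first difference to 0 and keeps the second positive. The upstream element was thus at the level of single reads in WT, while the promoter-proximal region was open in both genotypes.

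Gfi1b, the relative of Gfi1 used in red cells and platelets (chr2:28609450-28621982, minus strand), had 3 higher regions. The largest difference was at +30.3 kb, downstream of the gene and 7597 bp from the nearest coding start site, that of Gtf3c5 (chr2:28591348-28591971, sequence above). Its means were 4.11 in WT and 7.85 in dKO, a difference of 3.74 with a counting interval of 3.28 to 4.27. Since WT cells had about 38 reads there, this value does not depend on the floor, and it was the largest positive difference among the member regions with the WT mean above the floor. A region in an intron of Gfi1b (+3.1 kb, chr2:28618530-28619302) had means of 7.02 and 8.03, a difference of 1.01. The third region, at -76.7 kb (chr2:28698471-28698969), lies in an intron of Spaca9 near its start site and had means of 5.24 and 6.53.

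The MiT family members went opposite ways. Mitf, required for mast cells and pigment cells (chr6:97807052-98021349, plus strand), had 1 listed region, in an intron at +188.9 kb and 4001 bp downstream of the nearest start of a Mitf transcript (chr6:97995668-97996176, sequence above). Its means were 5.25 in WT and 6.42 in dKO, a difference of 1.17 (2.25-fold, counting interval 0.80 to 1.57). Tfec, a family member of macrophages (chr6:16833373-16898441, minus strand), had 4 lower regions. The one over its first exon and promoter (chr6:16898059-16898827) had means of 8.44 and 7.69. That difference of -0.75, or 1.68-fold lower, was the smallest of all 29, with a counting interval of -0.92 to -0.58. The Tfec promoter was the most accessible of the 29 regions in WT.

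Outside the Tfec gene, regions at -67.2 kb (chr6:16965215-16966033) and -79.3 kb (chr6:16977436-16978063) upstream had means of 8.16 in WT and 7.24 in dKO, and of 6.41 and 5.19. A region downstream of the gene end, at +77.7 kb (chr6:16820634-16820907), went from 5.58 to 3.98, the largest difference of the locus at -1.60. No other coding gene overlaps the 100 kb on either side of Tfec, and the same holds for Mitf.

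Zeb2, an E-box-binding repressor (chr2:44983632-45117395, minus strand), had 4 higher regions. The region at its first start site (chr2:45116753-45117560) had a WT mean of 4.33 and a dKO mean of 7.27, a difference of 2.94 or 7.67-fold, with a counting interval of 2.48 to 3.41. That was the largest difference among the 5 member regions that overlap a start site of their own gene. Within the first 8 kb of the gene, 2 more regions overlap internal start sites. At +6.1 kb (chr2:45111078-45111434), where the antisense transcript Zeb2os also runs, means were 5.54 and 6.68. At +7.6 kb (chr2:45109208-45110482) they were 6.80 and 7.72, a difference of 0.92. This last difference is below the median of all listed regions, and subtracting that median turns its sign. The fourth region lies past the gene end at +147.9 kb (chr2:44969300-44969645) and went from 2.91 to 5.32. Reads carry no strand in this assay, so the start sites of Zeb2 and of Zeb2os cannot be told apart as their source.

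**Figure D3:**
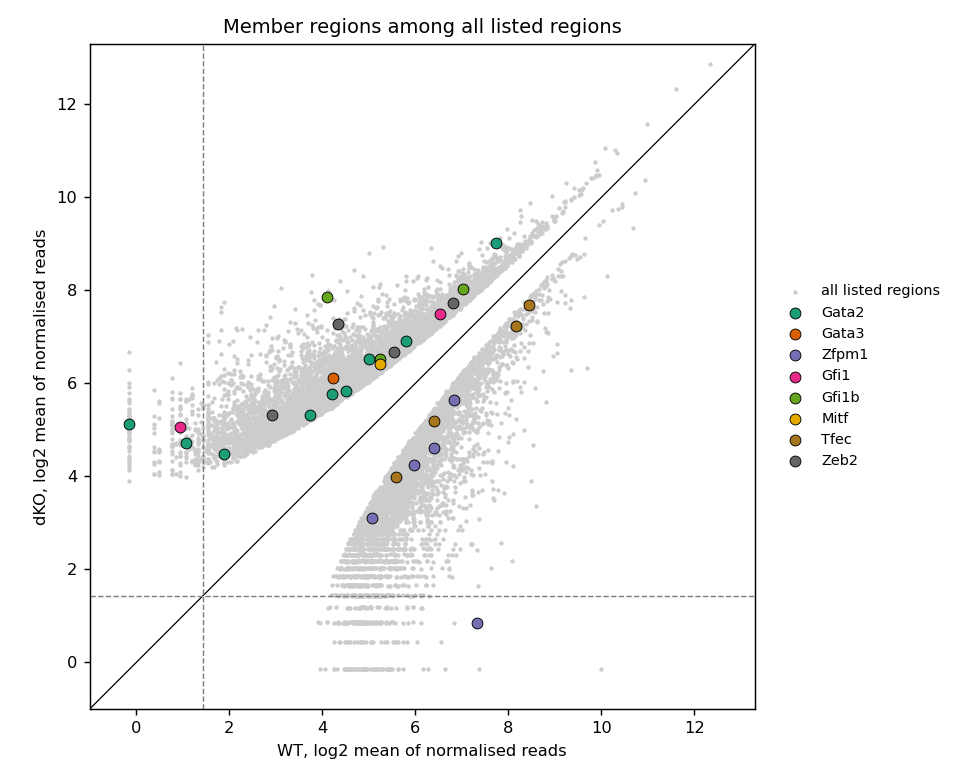
Log2 mean of normalised reads in WT (horizontal axis) and dKO (vertical axis) for all 10016 listed regions (grey) and the 29 regions of the 8 genes (coloured). The diagonal marks equal levels and the dashed lines 3 reads per library (1.43). Most coloured points lie within the grey cloud, on both sides of the empty band around the diagonal, where regions were not listed. The coloured points farthest from the diagonal are those of Zfpm1 (7.32 and 0.84), Gata2 (-0.15 and 5.12) and Gfi1 (0.93 and 5.06), each with 1 group under the floor, followed by that of Gfi1b (4.11 and 7.85).

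By position, 10 of the 29 regions lay in the body of their gene (7 higher, 3 lower) and 19 outside (13 higher, 6 lower). An exon of any gene was overlapped by 7, an intron only by 9 and neither by 13. A start site of the gene itself was overlapped in 5 cases, of which 4 were higher (Gata2 once and Zeb2 with 3 regions) and 1 lower (Tfec). Region width ran from 235 to 1275 bp with a median of 467 bp, against 400 bp over all listed regions.

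C/EBP strings were found in the central 200 bp of 7 of the 29 regions (24.1%), against 28.4% of all listed regions. All 7 were among the 20 higher regions, at Gata2, Gfi1, Gfi1b, Mitf and Zeb2, and none among the 9 lower regions of Zfpm1 and Tfec. Over all listed regions the strings occurred in 20.2% of the higher and 40.7% of the lower regions. With the whole region searched, 9 of 20 higher and 3 of 9 lower member regions held a C/EBP string, against 35.3% and 54.3% of all higher and lower listed regions, 1 of the latter in the Zfpm1 region at -71.8 kb. The central matches in the Mitf region and the intronic Gfi1b region share the same 8 letters, as does the match in the lower Tfec region at -67.2 kb. Outside the central 200 bp, the Mitf and Gfi1b regions each held a further C/EBP match with other letters. The shared matches are shown with 12 bases on either side and the match in capitals (chr6:97995960-97995991, chr2:28618902-28618933 and chr6:16965467-16965498, plus strand).
Mitf match: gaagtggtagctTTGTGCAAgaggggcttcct
Gfi1b match: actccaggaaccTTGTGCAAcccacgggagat
Tfec match: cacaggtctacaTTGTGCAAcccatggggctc
A match is a run of letters and was not tested for binding.

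GATA strings, the sites that the GATA factors themselves recognise, occurred in the centre of 6 of the 29 regions (20.7%), 3 higher and 3 lower, against 13.0% of all listed regions. They lay in regions of Gata2 (-19.6 kb), Gfi1 (-33.3 kb), Zeb2 (+147.9 kb), Zfpm1 (+12.3 kb) and Tfec (its promoter and -67.2 kb). With the whole region searched they occurred in 11 of 29 (37.9%), against 28.2%. The AP-1 strings were in 3 of 20 higher and 0 of 9 lower regions, against 26.6% and 4.65% of all higher and lower listed regions, and the PU.1 string was in 2 of 20 higher and 0 of 9 lower, against 13.0% and 3.37%. The RUNX string was in 1 region (3.45%, against 11.9%), and the GFI1 string in none of the 29, against 2.36% (in whole regions 1 of 29, that of Gfi1b at +30.3 kb, against 5.46%). The MITF E-box was in 6 regions (20.7%, against 21.9%) and the ZEB2 E-box in 4 (13.8%, against 9.86%). With whole regions searched, AP-1 strings were in 6 of 20 higher and 1 of 9 lower regions, against 36.1% and 8.89% of all higher and lower listed regions. The RUNX string was then in 2 of 20 and 2 of 9, against 22.3% and 14.7%. With 29 regions, a single region moves these shares by 3.45 percentage points.

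**Figure D4:**
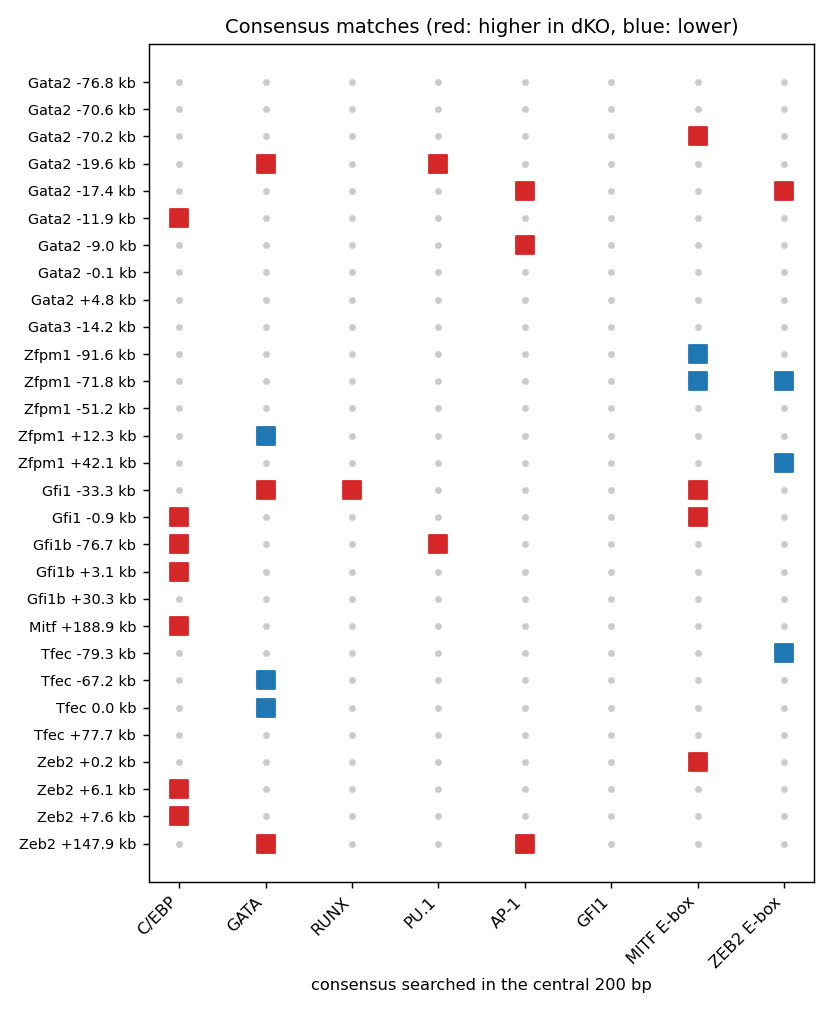
Matches to 8 consensus sequences (columns) in the central 200 bp of each of the 29 regions (rows, by gene and distance of the centre from the gene start). A filled square is at least 1 match on either strand, red in regions higher and blue in regions lower in dKO, and a small grey dot is no match. The 7 squares in the C/EBP column are all red, and the GFI1 column is empty.

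Genes that work with or under these factors were counted by the same rule. Over all protein-coding genes, 63.0% had a listed region, and of these 43.8% had higher regions only and 27.3% regions in both directions. Among partners of the GATA and GFI1 factors, 6 of 11 genes had a listed region, and these went both ways at 5 of them. Of their regions, 12 were higher and 10 lower (54.5% higher, against 60.3% of all listed regions). Tal1, Lmo2, Ldb1, Hdac1 and Hdac2 had none. Near start sites, Runx1 had a region with a difference of 1.08 and Cbfa2t3, a corepressor, one of 0.82. Kdm1a, the histone demethylase recruited by GFI1, had a difference of 1.63 near a start site inside the gene. Its other listed region was lower, and the median difference of its 2 regions was -0.11. Fli1, an ETS factor of megakaryocytes, had 3 lower regions and no higher one. Other members of the GATA, FOG, ZEB and MiT families had 7 higher and 8 lower regions (46.7% higher) at 7 of 7 genes. Zeb1, the paralogue of Zeb2, had 3 lower regions, of which the one at its start site had a difference of -2.60, opposite in sign to the 2.94 at Zeb2. Tfeb, of the MiT family, had 2 higher and 2 lower regions, and the one near a start site inside the gene had a difference of 1.06.

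Mast cell and basophil genes had 14 higher and 6 lower regions at 9 of 12 genes, so 14 of 20 regions were higher, against 60.3% of all listed regions. Il1rl1, the receptor for interleukin 33, had 5 higher regions, and Ms4a2, a chain of the IgE receptor, had 4 higher and 1 lower. Kit, the stem cell factor receptor, had 1 higher region with a difference of 3.26, whereas Cma1 and Tph1 had 2 lower regions each. Erythroid and megakaryocyte genes had 13 higher and 6 lower regions (68.4% higher, against 60.3% of all listed regions) at 9 of 11 genes. In this group Itga2b, the platelet integrin chain, had a region over its start site with means of 1.93 in WT and 5.52 in dKO, while Hba-a1 had 3 lower regions. Windows of 100 kb also take in neighbouring genes, and none of these counts assigns a region to its target.

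Genes known to be repressed by GFI1 or GFI1B had 29 higher and 6 lower regions (82.9% higher, against 60.3% of all listed regions) and at least 1 region at each of 11 genes, against 63.0% of all protein-coding genes. Of these genes, 8 had higher regions only, against 43.8% of protein-coding genes with a region: Id1, Id2, Egr1, Csf1, Csf1r, Cdkn1a, Meis1 and Irf8. Csf1r had 3 higher regions, none of them within 2 kb of a start site of the gene. For this gene the paper reports decreased expression in dKO cells, opposite in direction to its listed regions. Egr2, an early response factor of macrophages, accounted for 7 of the higher regions, with 1 lower one. The Egr2 region over a start site inside the gene had a difference of 0.69. Irf8, a monocyte and dendritic cell factor, had a region at its start site with means of 3.31 and 6.21, a difference of 2.90, and Id2 had one near its start site with a difference of 1.23. Socs3, an inhibitor of cytokine signalling, had 1 higher and 2 lower regions. Hoxa9 had 2 higher and 3 lower regions, and the region over a start site inside the gene had a difference of -0.82. Whether any of these differences depends on GFI1 or GFI1B was not tested, and RNA levels are not part of these data.

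**Figure D5:**
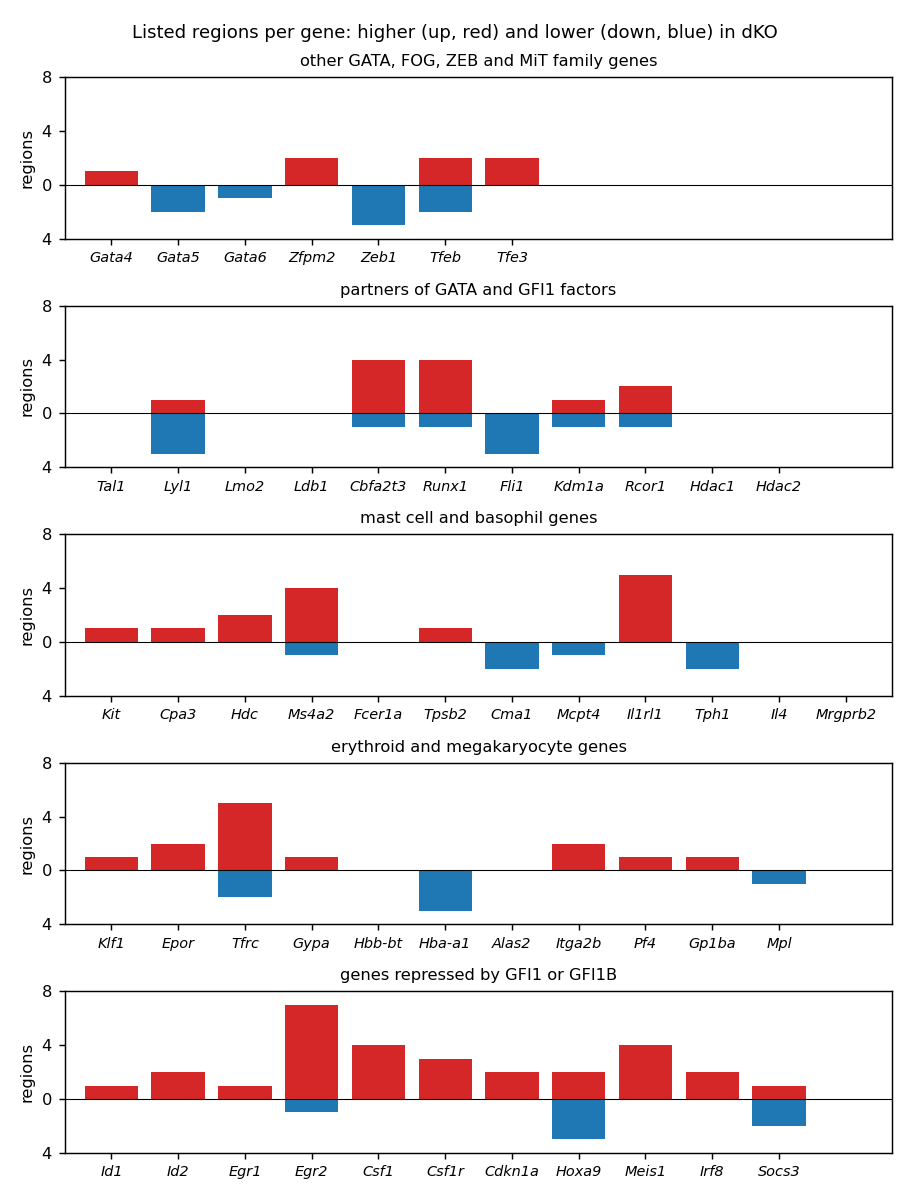
Number of listed regions per gene in the gene body or within 100 kb, for 5 lists of related genes. Red bars above 0 count regions higher in dKO and blue bars below 0 those lower. Each gene has a bar in the family list and in the list of genes repressed by GFI1 or GFI1B, whose tallest bar is Egr2 with 7 higher regions.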

How the data were processed

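ATAC-seq libraries of WT and dKO cells were preprocessed by the authors with PiGx, aligned to mm10 with Bowtie 2, and MACS peaks were compared with DiffBind (2.14.0 per the labels). Handling of duplicate reads and of the Tn5 offset was not given in the sources used here; kept duplicates would raise strongly amplified regions. Both deposited files were identical, so dKO-LAP* was not analysed. The authors' deposited values are log2 means of library-normalised reads per group. The fold change, p-value and FDR columns hold the authors' own comparison and were not used, beyond checking that 0 regions exceeded the cutoff of 0.05. Depth per library was not in the table.

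Differences were calculated as dKO minus WT from values given to 2 decimals, with Python 3.11.15 and pandas 2.3.3. All 267 WT means and all 281 dKO means no higher than 3 reads (100%) sat within 0.011 of a whole-read step at the best of the library ratios tried (1.26 in WT and 1.06 in dKO), against medians of 40.6% and 57.7% over all library ratios tried. One read was worth 0.901 normalised reads on average, from which reads were estimated for exact (Clopper-Pearson) 95% intervals. PCR copies are not independent molecules, so intervals cover counting error only. The fold value against the floor takes the dKO mean as exact. Annotation was GENCODE M21 on GRCm38.p6, with promoters from RefSeq. Overlap and motif searches were tested on simulated data. Members and gene lists were chosen with earlier results of these data known. Named regions were all those in a gene body or within 10 kb, the largest differences farther away, and those 70 to 85 kb upstream of Gata2, and in the gene lists those within 2 kb of a start site. Other regions and list genes were named after their values were seen.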

Additional observations from a re-analysis of the deposited data

How the results depend on the processing

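No gene changed direction under either narrower choice of regions, but Gata3 lost its region under both and Gfi1 under the second. Taking 10 kb on each side of the gene body left 9 higher and 3 lower regions, and taking regions whose nearest start site was that of the gene left 7 higher and 4 lower, in both cases because fewer regions qualify. Leaving out the Gata2 regions gave 11 higher regions. The median difference of 1.17 became 1.14 with the lower group above the floor, 1.06 with 10 kb and 0.95 without Gata2. Centring on the median of listed regions gave 18 higher and 10 lower regions with 1 at 0, and turned the Zeb2 region at +7.6 kb to -0.06, as it does by construction for any smaller positive difference. Searching whole regions moved the ZEB2 E-box share from 13.8% to 31.0%, that of RUNX from 3.45% to 13.8%, of AP-1 from 10.3% to 24.1%, of the MITF E-box from 20.7% to 34.5%, of C/EBP from 24.1% to 41.4% and of GATA from 20.7% to 37.9%, since more sequence was searched. Over all listed regions the whole-region shares were 24.2% for the ZEB2 E-box, 19.3% for RUNX, 25.3% for AP-1, 38.8% for the MITF E-box, 42.9% for C/EBP and 28.2% for GATA. No paired analysis was possible because only means over both libraries of a group are given. Leaving out single replicates, rescaling libraries and changing pseudocounts were not run, since each needs values of single libraries.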
